A study of Mus musculus with 8 samples.

Results

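WFS1 ChIP-seq peaks were described at 10 genes through which growth factors act on myoblasts, namely Fgfr1, Fgfr2, Fgfr3, Fgfr4, Met, Hgf, Egfr, Pdgfra, Pdgfrb and Insr. Of these, 9 encode receptor tyrosine kinases, and Hgf encodes the ligand of Met and not a receptor. The genes, 10 of 21787 protein-coding genes of the RefSeq annotation of GRCm38, were chosen by name and by no rule on their peaks. Earlier results of these data were known at the time, so their shares beside all genes are descriptions only. Every peak in or within 100 kb of a gene was taken, which gave 36 of the 22292 peaks of the genome. WFS1 is a transmembrane protein of the endoplasmic reticulum that also resides in the nuclear envelope, and the study examined which genomic regions it associates with in C2C12 cells, a mouse myoblast line.

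Both libraries used here came from wildtype C2C12 cells in proliferation, crosslinked with DSG and formaldehyde and immunoprecipitated with an antibody against WFS1. The library of 30 sonication cycles gave 18283 peaks. The library of 36 cycles came from the other portion of the same immunoprecipitation after 6 further cycles and gave 12674 peaks. Each condition therefore had 1 library, neither list was a replicate of the other, and no test between them was possible. Of the 8 libraries of the series, 6 were not used here, namely the inputs and the libraries of WFS1 knockout cells that express FLAG Tag WFS1. The lists held only the position of each peak, without height or read count, so the depth was unknown and the myoblast identity of the cells could not be checked against marker genes. Overlapping or touching peaks were joined into combined peaks, which were then of both lists (7897), of 30 cycles only (10141) or of 36 cycles only (4254).

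Receptor tyrosine kinases are membrane proteins that act as dimers, formed on ligand binding in most families and already present in the insulin receptor, and phosphorylate each other, which recruits adaptors and switches on the Ras-MAPK and PI3K-Akt pathways. In the muscle lineage FGFs keep myoblasts dividing and delay their differentiation, HGF acting through Met wakes satellite cells and draws muscle precursors to migrate, and insulin receptor signalling supports growth of the fibre. PDGF receptors mark mesenchymal cells between the fibres and the cells around vessels, and EGFR takes part in the activation of satellite cells.

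The sequence under a peak is the only other readout that a list of positions gives. The search covered 3 motifs on both strands of the central 200 bp of each peak. The first was TGACTCA, the site of AP-1, which reads TGAGTCA on the opposite strand. The next was the E-box CAGCTG, of the kind that myogenic factors bind, which reads the same on both strands. The last was TGTGGT, the core of RUNX sites, which reads ACCACA on the opposite strand. TGACTCA lay in 5 of the 36 peaks (13.9%, 95% Wilson interval 6.08 to 28.7%), against 17.9% of all combined peaks. CAGCTG lay in 5 of the 36 (13.9%, 6.08 to 28.7%), against 18.0% of all. TGTGGT lay in 8 of the 36 (22.2%, 11.7 to 38.1%), against 24.7% of all. All background shares were inside the intervals, which cover counting error over peaks only. A match is a description of letters and not a bound site.

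Sequences of 6 peaks are shown as examples of how the motifs were arranged, and they were chosen for holding a motif, whereas 22 of the 36 peaks held none in the centre. Each is the forward strand of GRCm38 as given by RefSeq, 5′ to 3′, cut to the central 200 bp except for the first Hgf peak, which is whole at 195 bp, and the motif letters are in capitals. The peak of both lists upstream of Fgfr1, chr8:25465648-25465847, held TGAGTCA at 2 positions. The pair beyond the end of Fgfr4, chr13:55169117-55169316 and chr13:55171592-55171791, held CAGCTG. The last peak beyond Met, chr6:17631692-17631891, held all 3 motifs, with AP-1 and RUNX letters separated by a single base. The pair upstream of Hgf, chr5:16469907-16470101 and chr5:16470377-16470576, held AP-1 and RUNX letters in the first and an E-box in the second. None of the 6 stretches overlapped an annotated exon.
Fgfr1 peak 1: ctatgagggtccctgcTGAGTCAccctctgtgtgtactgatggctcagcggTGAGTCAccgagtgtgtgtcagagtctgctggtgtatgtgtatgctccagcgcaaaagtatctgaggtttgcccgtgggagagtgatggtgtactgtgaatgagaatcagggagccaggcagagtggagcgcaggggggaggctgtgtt
Fgfr4 peak 2: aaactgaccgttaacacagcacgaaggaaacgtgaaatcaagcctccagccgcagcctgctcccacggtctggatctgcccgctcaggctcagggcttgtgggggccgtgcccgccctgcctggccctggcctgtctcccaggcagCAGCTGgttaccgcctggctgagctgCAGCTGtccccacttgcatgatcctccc
Fgfr4 peak 3: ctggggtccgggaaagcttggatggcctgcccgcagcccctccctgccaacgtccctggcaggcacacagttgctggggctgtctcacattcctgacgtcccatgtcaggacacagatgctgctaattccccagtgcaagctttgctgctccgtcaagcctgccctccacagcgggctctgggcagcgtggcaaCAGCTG
Met peak 7: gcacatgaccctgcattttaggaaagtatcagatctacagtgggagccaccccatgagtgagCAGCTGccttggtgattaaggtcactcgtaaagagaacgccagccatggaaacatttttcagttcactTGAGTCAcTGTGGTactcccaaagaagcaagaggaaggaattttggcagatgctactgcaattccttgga
Hgf peak 1: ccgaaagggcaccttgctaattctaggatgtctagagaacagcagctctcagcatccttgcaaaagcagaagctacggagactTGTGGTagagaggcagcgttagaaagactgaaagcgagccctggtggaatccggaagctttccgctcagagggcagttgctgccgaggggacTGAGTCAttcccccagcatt
Hgf peak 2: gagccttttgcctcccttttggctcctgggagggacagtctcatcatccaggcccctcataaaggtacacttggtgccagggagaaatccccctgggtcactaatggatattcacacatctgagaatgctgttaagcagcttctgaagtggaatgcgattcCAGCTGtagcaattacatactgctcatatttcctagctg

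Peaks were found at 9 of the 10 genes, against 72.8% of all protein-coding genes with a combined peak in or within 100 kb. Fgfr1, Fgfr4 and Met had 7 peaks each, Hgf had 4, Egfr had 3, and Fgfr3, Pdgfra, Pdgfrb and Insr had 2 each. Fgfr2 had none. Protein-coding genes had a median of 2 peaks with quartiles of 0 and 5, and the 10 genes a median of 2.5, so 3 of the genes lay above the upper quartile and 1 had no peak, as did 27.2% of all genes. In the 36-cycle list alone Met fell to 3 peaks, equal to the upper quartile of that list, and with windows of 50 kb Fgfr1 fell to 3, equal to the upper quartile there, whereas Fgfr4 stood above the quartile in both cases with 6 and 7. Corrected for the length of the gene and its flanks, 4 of the 10 exceeded the median of all genes of 0.93 peaks per 100 kb, namely Fgfr4 with 3.24, Fgfr1 with 2.72, Met with 2.25 and Hgf with 1.5. The median of the 10 was 0.881 peaks per 100 kb, slightly below that of all genes.

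**Figure D1:**
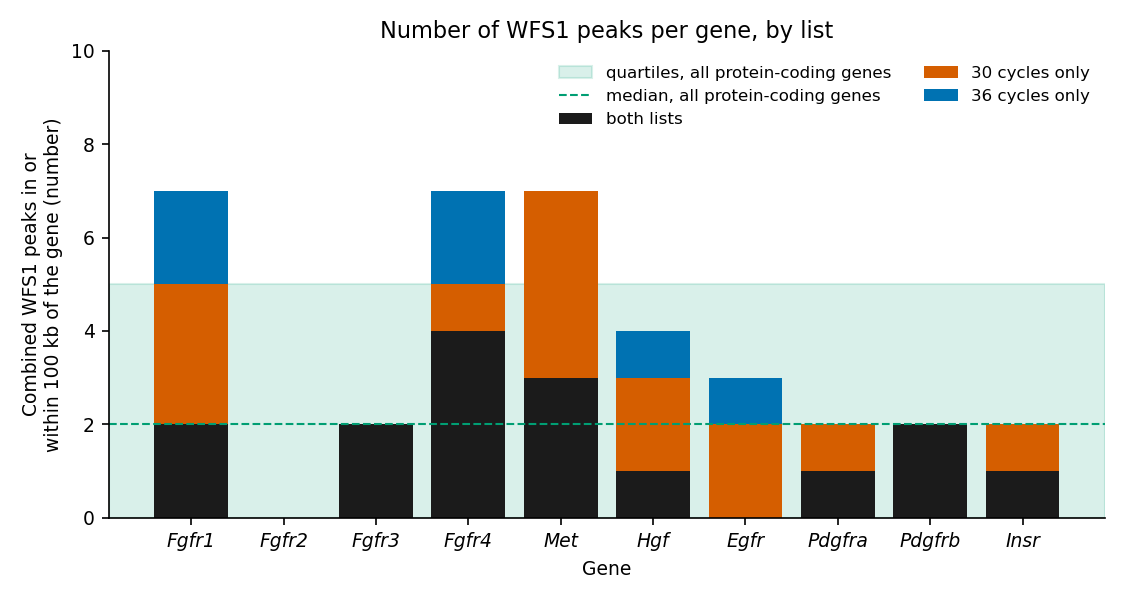
Number of combined WFS1 peaks in or within 100 kb of each gene (vertical axis), stacked by the list they came from, with the median (dashed) and quartiles (shaded) of 21787 protein-coding genes. Fgfr1, Fgfr4 and Met stood above the upper quartile of 5 with 7 peaks each, Egfr had no peak of both lists, and Fgfr2 had no peak.

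A peak of both lists was present at 8 of the 10 genes, against 47.4% of all protein-coding genes, and the exceptions were Fgfr2 and Egfr. Of the 36 peaks, 16 were of both lists (44.4%, 29.5 to 60.4%), against 35.4% of all combined peaks. A further 14 were of 30 cycles only (38.9%, 24.8 to 55.1%) and 6 of 36 cycles only (16.7%, 7.87 to 31.9%), against 45.5% and 19.1% of all. The shares of all combined peaks lay within these intervals. The 6 peaks of 36 cycles only lay at Fgfr1, Fgfr4, Hgf and Egfr, and Met, with as many peaks as Fgfr1, had none of them.

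Most peaks lay away from the start sites of these genes, as most combined peaks did from any protein-coding start. A peak overlapped 7 of the 10 genes, against 24.6% of all protein-coding genes, without correction for the length of the genes. The 7 were from 39.9 kb long for Pdgfrb to 162 kb for Egfr, and the genes without were Fgfr3 of 15.3 kb, Fgfr4 of 15.9 kb and Fgfr2 of 104 kb. Only Met had a peak within 1 kb of its start site, 1 of 10 against 12.8% of all genes. Of the 36 peaks, 10 were inside a gene of the set, 11 upstream and 15 beyond the end, and 7 of the 10 inside touched no exon of that gene. The start site nearest to a peak was that of the gene itself for 20 of the 36 peaks and that of another protein-coding gene for 16, of which 5 were within 1 kb of that other start. No share over all genes stands beside these splits by position and by nearest start. Counting any protein-coding start, 6 of the 36 peaks were within 1 kb of one (16.7%, 7.87 to 31.9%), against 13.3% of all combined peaks. The lists give positions only, so which gene a peak belongs to cannot be told from them.

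**Figure D2:**
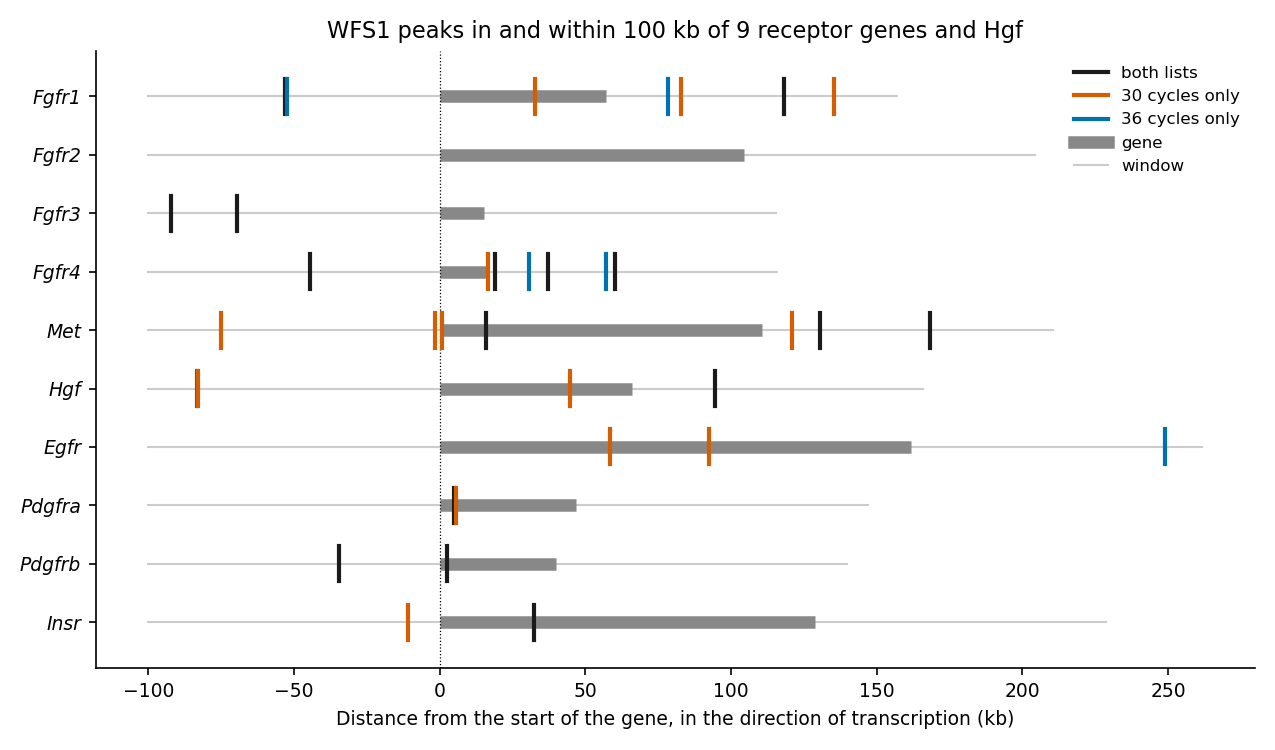
Position of the 36 combined WFS1 peaks (vertical ticks) relative to the start of each gene (horizontal axis, kb in the direction of transcription), coloured by list, with the gene drawn as a thick bar and the window of 100 kb on either side as a thin line. Peaks of Met, Pdgfrb and Pdgfra lay at or near the start, and 6 of the 7 at Fgfr4 followed the end of the gene. At Hgf the tick near -83 kb stands for 2 peaks 109 bp apart, of which the later one covers the other.

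Among the FGF receptors, Fgfr1, the main FGF receptor of proliferating myoblasts, spans chr8:25518759-25575718 on the plus strand and had 7 peaks. The first was of both lists, 507 bp wide, and ended 52.8 kb upstream of the start within an intron of the long non-coding RNA Gm31045. Its call was 449 bp wide after 30 cycles and 337 bp after 36 cycles, and its AP-1 letters are the pair printed above. A second peak of 225 bp followed 368 bp further on, was of 36 cycles only, and held the RUNX core. Inside Fgfr1 there was a single peak, 281 bp wide and of 30 cycles only, in an intron 32.4 kb from the start. This intronic peak held none of the 3 motifs and was the nearest to the Fgfr1 start. The remaining 4 peaks lay between 21.2 and 78.2 kb beyond the end and were nearer to the starts of Letm2, a mitochondrial protein gene, and Nsd3, which encodes a histone methyltransferase. Of these, a peak of 570 bp of 30 cycles only covered the Nsd3 start, and a peak of 223 bp of 36 cycles only lay 885 bp from the start of Letm2. Thus 3 of the 7 peaks had Fgfr1 as the nearest start, and 1 of those 3 was of both lists.

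Fgfr2, a receptor better known from epithelia and bone, spans chr7:130162451-130266808 on the minus strand and had no peak in the gene or within 100 kb. Within 200 kb there was none either. The nearest peak lay 253 kb upstream, was 346 bp wide and of 30 cycles only, and stood 273 bp from the start of the predicted gene Gm4275. On the other side the next peak was 1580 kb from the start. A nearer peak was found for 85.0% of protein-coding genes, so Fgfr2 lay in the sparse tail, and its chromosome had 0.648 peaks per 100 kb. The absence depends on where the gene is taken to begin. Of its 27 GENCODE transcripts, 1 of the lowest support level 5 extends the gene to 2.96 Mb and brings in 27 peaks. Of these, 0 had the RefSeq start of Fgfr2 as the nearest start, but a peak lay within 1 kb of the extended GENCODE start.

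Fgfr3, which restrains growth of cartilage, spans chr5:33721724-33737068 on the plus strand and had 2 peaks, both upstream and both of both lists. The first, 699 bp wide with a GC content of 71.5%, covered the start of Fam53a 91.9 kb away. The second, 347 bp wide with a GC content of 65.7%, lay 350 bp from the start of Slbp, the histone mRNA binding protein, 69.5 kb away. No peak had Fgfr3 as the nearest start, and with the window narrowed to 50 kb Fgfr3 had none.

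Fgfr4, the FGF receptor gene of regenerating muscle and a known target of myogenic factors, spans chr13:55152818-55168759 on the plus strand and had the highest density of the set, above that of 89.2% of protein-coding genes. Of its 7 peaks, 4 were of both lists, 1 of 30 cycles only and 2 of 36 cycles only, and none touched the gene. The nearest began 226 bp beyond the end, was 463 bp wide and of 30 cycles only, and held 3 copies of CAGCTG, 2 of them in its centre. The next began 2.37 kb beyond the end and was the widest of the 36 peaks at 1119 bp. Its call was 1119 bp wide after 30 cycles and only 356 bp after 36 cycles, and it held CAGCTG at 2 positions, 1 of them in the centre. These peaks, 16.2 and 18.3 kb from the start and printed above, were the only ones of the 7 with Fgfr4 as the nearest start. Of the others, 4 were nearer to Nsd1, a histone methyltransferase gene, and 1 to Zfp346. A peak of 242 bp of 36 cycles only covered the Nsd1 start, and a peak of both lists of 967 bp lay 2.61 kb from it. Outside the centre, CAGCTG also lay in that 967 bp peak and in the peak nearer to Zfp346, 1 copy each.

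Met, the receptor of HGF, spans chr6:17463349-17573980 on the plus strand and had 7 peaks, 3 of both lists and 4 of 30 cycles only. Its start was the best covered of the set. A peak of 635 bp at chr6:17463697-17464331, of 30 cycles only and with a GC content of 69.6%, began 348 bp into the gene and overlapped a non-coding exon. It spanned 3 of the 4 annotated transcript starts of Met. A second peak of 30 cycles only, 505 bp wide with a GC content of 41.8%, ended 1.39 kb upstream and held an E-box outside its centre. Neither was called after 36 cycles, so in that list alone 0 of the 10 genes had a peak within 1 kb of the start. The first intronic peak, 15.6 kb from the start, was of both lists and 482 bp wide. A peak of 286 bp of 30 cycles only 75.0 kb upstream held the AP-1 site in its centre. The 3 peaks beyond the end, the farthest of them 57.5 kb away, were nearer to the start of Capza2, which encodes an actin capping subunit. The last of them, 604 bp wide and 4.92 kb from the Capza2 start, was the only 1 of the 36 peaks with all 3 motifs in the centre and was called at 604 bp after 30 cycles and 548 bp after 36 cycles.

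Hgf, the ligand of Met, spans chr5:16553495-16619439 on the plus strand and had 4 peaks, all of which had Hgf as the nearest protein-coding start. A pair lay 83.4 and 82.8 kb upstream, separated by 109 bp. The first of the pair was 195 bp wide and of 36 cycles only, and the second 532 bp wide and of 30 cycles only, so the lists called adjacent and not the same positions. The motifs were also distinct, AP-1 and RUNX letters in the first and an E-box in the second. Where peaks up to 500 bp apart were joined, the pair became a single peak and Hgf had 3. A peak of 251 bp of 30 cycles only overlapped a coding exon 44.5 kb into the gene, the only coding exon of the 10 genes under a peak, and held none of the motifs. The peak of both lists lay 28.4 kb beyond the end, was 714 bp wide, and held the RUNX core in its centre and an AP-1 site outside it.

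Egfr, the receptor of EGF and its relatives, spans chr11:16752203-16913907 on the plus strand, the longest gene of the set, and had 3 peaks, none of both lists. Peaks of 247 and 559 bp, both of 30 cycles only, lay in introns 58.3 and 92.1 kb from the start, the first also over an exon of the antisense RNA Egfros, and neither held a motif. The third, 268 bp wide and of 36 cycles only, lay 87.2 kb beyond the end in an intron of Plek, a gene of platelets and leukocytes, and held AP-1 and RUNX letters in its centre. With 0.829 peaks per 100 kb, Egfr had fewer than its chromosome as a whole, which had 1.37, whereas 7 of the 10 genes exceeded theirs.

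Each of the PDGF receptor genes had a peak of both lists within 5 kb of its start. Pdgfra spans chr5:75151322-75198206 on the plus strand, and its 2 peaks lay in the gene 4.58 and 5.47 kb from the start, 353 bp apart. The first, chr5:75155903-75156441, was of both lists, 539 bp wide with a GC content of 63.6%, and spanned 1 of the 5 annotated transcript starts of Pdgfra. The second was of 30 cycles only and 242 bp wide, and neither held any of the 3 motifs. Pdgfrb, of 39.9 kb, had 2 peaks of both lists. Its intronic peak, 490 bp wide, lay 2.27 kb from the start and held an E-box outside the centre. Its upstream peak, 692 bp wide and 34.3 kb away, overlapped a coding exon of the transporter gene Slc6a7, to whose start it was nearer, and held the RUNX core at 2 central positions. A nearer peak was found for 18.7% of protein-coding genes in the case of Pdgfra and 15.6% in the case of Pdgfrb.

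Insr, the insulin receptor, spans chr8:3150922-3279649 on the minus strand and had 2 peaks, both with Insr as the nearest start. The upstream peak, 493 bp wide and of 30 cycles only, ended 10.6 kb from the start. It consisted of annotated repeats over 91.5% of its length, the highest share of the 36 peaks, and it was 1 of the 8 peaks counted with a central RUNX core and held more matches to that core than any other peak. The intronic peak 32.0 kb from the start was of both lists, 716 bp wide, with 14.7% repeat. With 0.608 peaks per 100 kb Insr had the lowest density of the genes that had any.

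In the order of distance from the start to the nearest peak, Met came first with 0.348 kb, followed by Pdgfrb with 2.27, Pdgfra with 4.58, Insr with 10.6, Fgfr4 with 16.2, Fgfr1 with 32.4, Hgf with 44.5, Egfr with 58.3, Fgfr3 with 69.5 and Fgfr2 with 253 kb. The median of the 10 was 24.3 kb and that of all protein-coding genes 42.3 kb, with quartiles of 9.93 and 132 kb. Met, Pdgfrb and Pdgfra lay nearer than the lower quartile and Fgfr2 farther than the upper. With 1 library per condition these distances had no replicate spread.

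**Figure D3:**
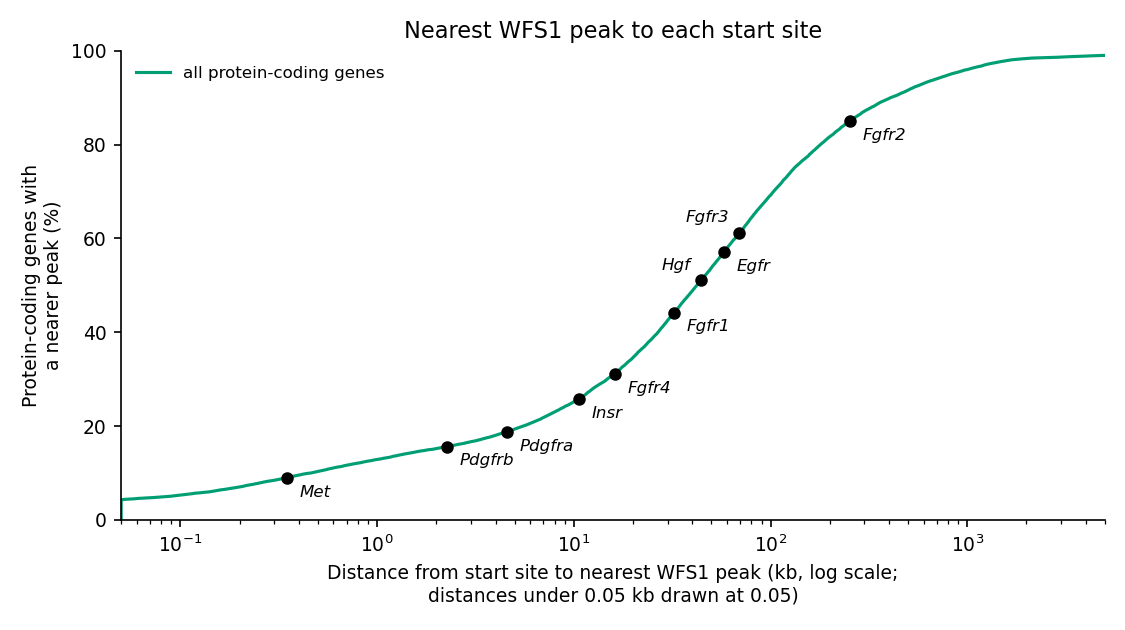
Distance from the start site to the nearest combined WFS1 peak (horizontal axis, kb, log scale) against the share of protein-coding genes with a nearer peak (vertical axis, %), as a line for 21787 genes and points for the 10 genes. Met at 0.348 kb had 8.93% of genes ahead of it and Fgfr2 at 253 kb had 85.0%.

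The 36 peaks had a median width of 492 bp, against 376 bp for all combined peaks. Those of both lists had a median of 580 bp against 623 bp for all of their class, those of 30 cycles only 478 against 324 bp, and those of 36 cycles only 234 against 255 bp. Among the 16 peaks of both lists, the call after 30 cycles was the wider in 13, with a median of 528 bp against 346.5 bp, and the call after 36 cycles was the wider at the peaks 94.3 kb from the Hgf start, 34.3 kb upstream of Pdgfrb and in the Insr intron. The median GC content was 49.7%, against 47.1% for all combined peaks.

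**Figure D4:**
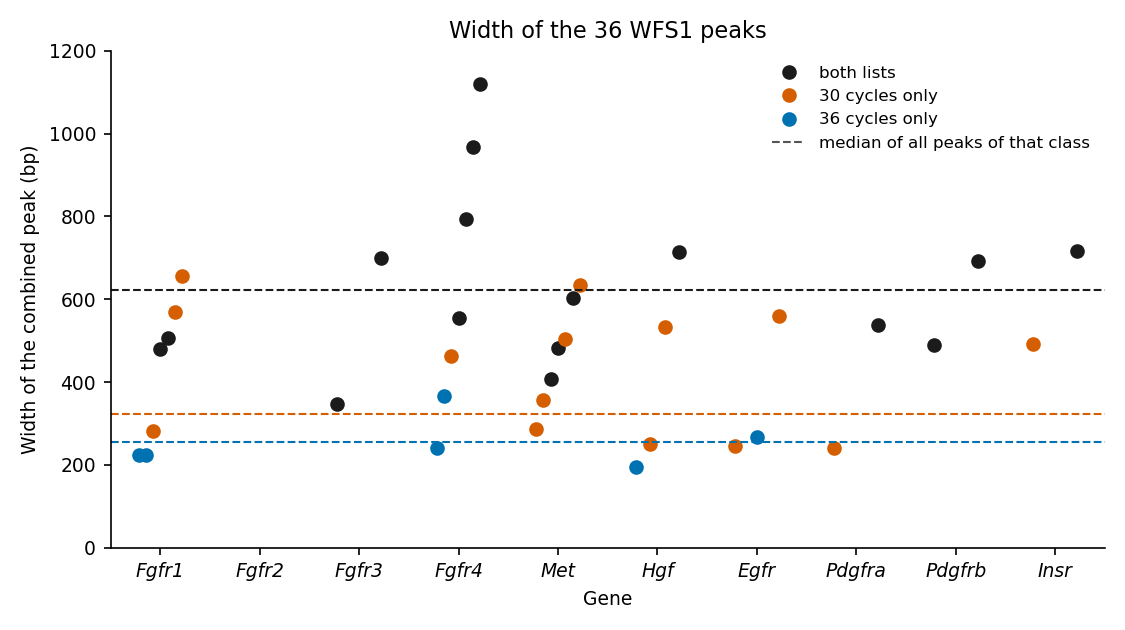
Width of each of the 36 combined WFS1 peaks (vertical axis, bp) by gene, coloured by list, with the median of all combined peaks of each class as a dashed line. The widest, 1119 bp at Fgfr4, and the next in width at that gene were of both lists, and the 6 peaks of 36 cycles only were between 195 and 367 bp wide.

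Of the 36 peaks, 14 held at least 1 of the 3 motifs in the centre (38.9%, 24.8 to 55.1%), against 48.0% of all combined peaks, and 3 held more than 1, namely the last peak of Met, the first of Hgf and the last of Egfr. By list, AP-1 letters were central in 2 of 16 peaks of both lists, 1 of 14 of 30 cycles only and 2 of 6 of 36 cycles only, the E-box in 2, 3 and 0, and the RUNX core in 4, 1 and 3. Over all combined peaks of these classes, AP-1 letters were central in 20.8, 16.9 and 15.3%, the E-box in 20.8, 16.8 and 15.6%, and the RUNX core in 28.5, 23.5 and 20.7%. Over the whole peak, AP-1 letters lay in 30.6% of the 36 peaks against 31.2% of all, the E-box in 38.9% against 32.8%, and the RUNX core in 30.6% against 41.6%. The peaks of Fgfr3 and Pdgfra and the intronic peaks of Egfr held none of the motifs over their whole width.

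**Figure D5:**
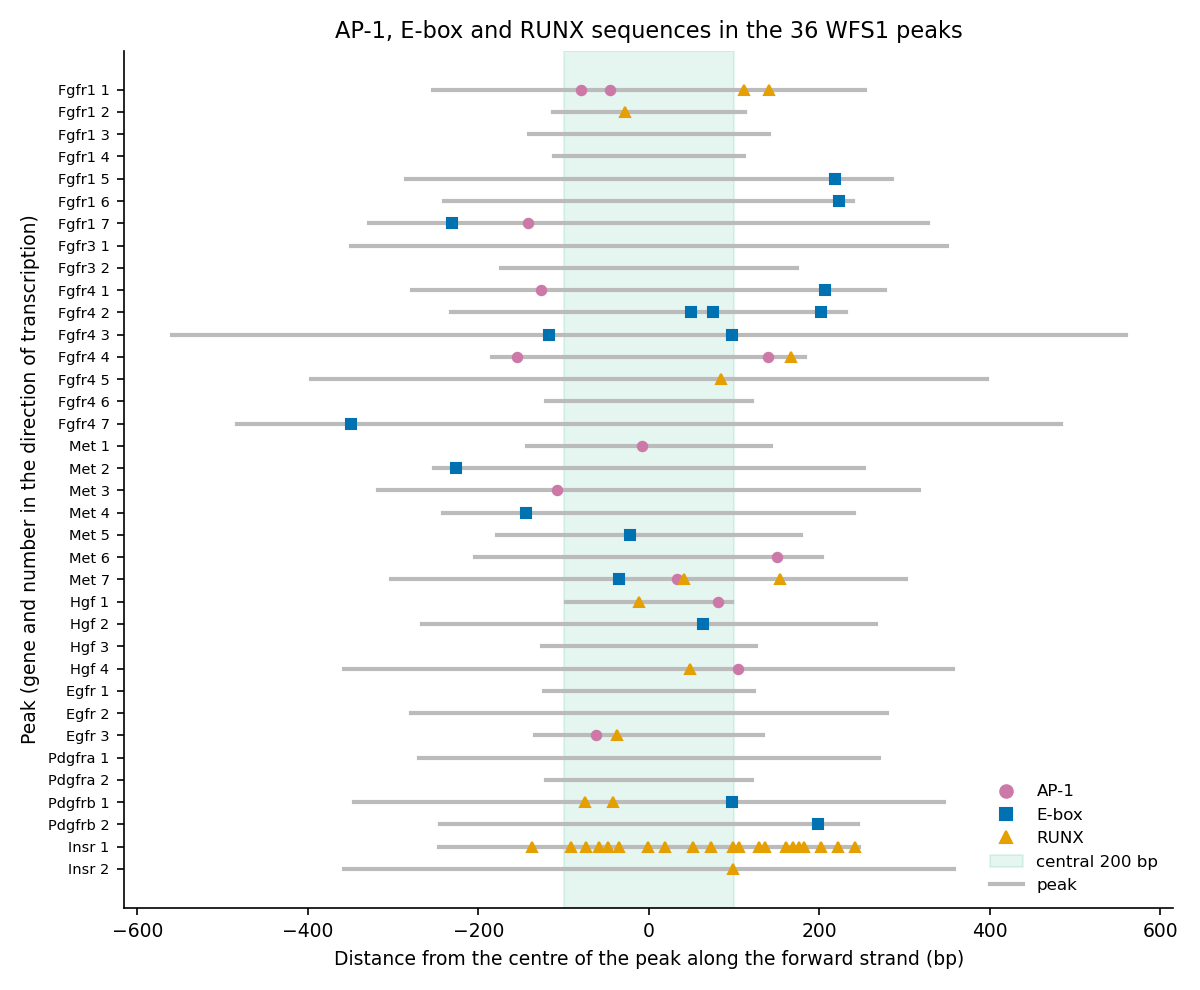
Positions of the AP-1, E-box and RUNX letters on either strand relative to the centre of each of the 36 peaks (horizontal axis, bp), with the peak as a grey line and the central 200 bp shaded. Motifs were scattered across the peaks, the RUNX matches being most numerous in the repeat-rich upstream peak of Insr, and 14 of the 36 held at least 1 within the shaded centre.

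Genes that act with these receptors were described from a list of 70 genes in 8 roles. The list was chosen with earlier results of these data known, so its shares beside all genes and beside the 10 genes are descriptions only. Of the 70, 61 had a peak in or within 100 kb (87.1%, against 72.8% of protein-coding genes), 45 had a peak of both lists (64.3%, against 47.4%), and 21 had a peak within 1 kb of the start (30.0%, against 12.8%), whereas this held for 1 of the 10 genes above. By role, such a peak was present at 5 of 8 coreceptors, at 2 of 4 PDGF ligands, and at 6 of 14 inhibitors of receptor signalling. The 8 coreceptors were the syndecans, a glypican, the klothos and CD44, which present ligands, and neither klotho had such a peak. Adaptors had 5 of 13, HGF processing genes 1 of 5, EGF family ligands 1 of 8 and related receptors 1 of 9. FGF ligands had 0 of 9, although 8 of them had a peak in the window.

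Peaks of both lists lay within 1 kb of the start of 10 genes of the list (14.3%, against 3.32% of protein-coding genes), and of 0 of the 10 genes above. Among the inhibitors these were Dusp6, the phosphatase of ERK, with a peak of 1588 bp, Spred1 with 1035 bp, and Spred2 with peaks of 730 and 1111 bp, both Spred genes being inhibitors of Ras-Raf signalling. Among the adaptors they were the insulin receptor substrates, Irs1 with peaks of 575 and 891 bp and Irs2 with 733 bp. Among the coreceptors they were Sdc4 with 727 bp and Cd44 with 916 bp. The others were the ligands Ereg with 420 bp and Pdgfc with 692 bp and the receptor Igf1r with 823 bp. The most peaks were counted around Socs3, an inhibitor of cytokine and insulin signalling, with 15, followed by Plau, Cd44 and Spred2 with 13 each and Nrg1, Pdgfb and Pdgfc with 12 each. These counts were not corrected for length. Nrg1 is 1080 kb long and had 0.934 peaks per 100 kb, near the median of 0.93 of all protein-coding genes. The others named had from 3.18 (Pdgfc) to 7.34 (Socs3). No peak in the window was called for 9 of the 70 genes, against 27.2% of all protein-coding genes. They were 4 of the 9 related receptors (Erbb4, Fgfrl1, Kit and Insrr), and Fgf10, Egf, Hbegf, Cbl and Grb14 of other roles. The list was written by hand.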

How the data were processed

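WFS1 ChIP-seq peak lists of wildtype C2C12 cells (30 and 36 sonication cycles, 1 library each) were used. Per the authors, NextGenMap aligned the reads to GRCm38, alignments of low mapping quality were dropped, duplicate positions were kept once, and MACS2 was run on each library by itself. The control used in peak calling is not given in the sources used here. The deposited files give nothing but peak positions, without signal or score, and the depth is unknown.

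Lists were joined where peaks overlapped or touched, which was checked to equal bedtools merge (version 2.31.1). Positions are counted from 1. Genes came from RefSeq for GRCm38, with the start at the 5′ end of the gene. RefSeq was chosen over GENCODE M21 after seeing that a single transcript extended Fgfr2. Distances run from the nearest peak edge. A peak belonged to every gene within 100 kb of it. Shares have 95% Wilson intervals from scipy 1.17.1, which cover counting error over peaks only. No test was run. Joining, assignment, nearest starts and motif search were tested on simulated data.

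All members were named with every peak. Other genes were named where their start was the nearest to a peak, and from the list of 70 genes those with a peak of both lists within 1 kb of the start and the 5 with the most peaks, ties included. The genes of the list without a peak, neighbouring non-coding RNA genes and the Nsd genes compared at the end were named after their values were seen. The genes and lists were chosen with earlier results of these data known. Alternatives were each list alone, joining across 500 bp, wider peaks, windows of 50 and 200 kb, other distances to starts, every transcript start, an overlap of 50%, whole peaks for motifs and GENCODE genes.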

Additional observations from a re-analysis of the deposited data

How the results depend on the processing

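Of 35 alternative values for the summary results, 23 stayed within 1.5 times the reported count or within the interval of the reported share, and 12 did not. For the peaks of single genes this was 64 and 26 of 90. The 36 peaks became 22 in the 36-cycle list alone, 23 among peaks wider than the median of 376 bp, 20 where the gene's own start was the nearest, 62 in windows of 200 kb and 63 with GENCODE genes, an alternative added after seeing the data in which Fgfr2 gained 27. The share of both lists rose from 44.4 to 65.2% among the wider peaks and to 51.5% when peaks up to 500 bp apart were joined. Genes with a peak at the start, 1 in the main setting, were 0 in the 36-cycle list alone, 2 with every transcript start (Met and Pdgfra), 2 with GENCODE (Met and Fgfr2) and 3 within 5 kb (Met, Pdgfra and Pdgfrb). AP-1 letters rose from 13.9 to 30.6% and the E-box from 13.9 to 38.9% when the whole peak was searched, by the longer sequence searched. Genes with a peak numbered from 8 (window of 50 kb) to 10 (GENCODE). A stricter peak threshold was not run because the lists have no score. No paired analysis was possible because the lists come from 1 library per condition and from no test. The unknown depth limits all counts, and the absence of a peak at Fgfr2 says only that none was called.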

Other observations

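Of the 4 FGF receptor genes, 3 have a gene of the NSD family of histone methyltransferases as a neighbour, and these were compared after the values had been seen. Nsd3, 25.9 kb from Fgfr1, was overlapped by 3 peaks, 1 of both lists and 2 of 30 cycles only. Nsd1, 41.0 kb from Fgfr4, was overlapped by 2 peaks, 1 of both lists and 1 of 36 cycles only. Nsd2, 83.6 kb from Fgfr3, was overlapped by 0. A peak lay within 1 kb of the start of Nsd3 (30 cycles only) and of Nsd1 (36 cycles only) and not of Nsd2. Of all protein-coding genes, 24.6% were overlapped by a peak and 12.8% had one within 1 kb of the start. These shares were not corrected for length, and Nsd3 is 118 kb long, Nsd1 109 kb and Nsd2 77.3 kb. The peaks of each pair are in part the same, so these counts are not independent.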
